A study of Mus musculus with 28 samples.

Results

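The 46 genes described here drive or mark cell division in mouse cells. They were chosen by name, as replication and mitosis genes with their regulators, and all 46 were matched among the 45513 genes counted in the study. By role, 9 were regulators of entry into S phase (D and E cyclins, their kinases, Cdc25a and E2f1), 10 served DNA replication (Pcna, Mcm2 to Mcm7, Rrm1, Rrm2, Tyms), 9 were mitotic cyclins and kinases with their activating phosphatases (Ccna2, Ccnb1, Ccnb2, Cdk1, Cdc25b, Cdc25c, Aurka, Aurkb, Plk1), 14 acted on chromosomes, the spindle or its checkpoint (Mki67, Top2a, Bub1, Bub1b, Mad2l1, Cdc20, Birc5, Kif11, Kif20a, Kif23, Cenpa, Cenpe, Cenpf, Tpx2) and 4 were CDK inhibitors (Cdkn1a, Cdkn1b, Cdkn2a, Cdkn2c).

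The study asked how human TDP-43, an RNA-binding protein, and its disease variant A315T affect translation. For this, ribosome-protected mRNA fragments (footprints) and total mRNA were sequenced from 14 cultures, giving 28 libraries. One set came from MN1 cells, a clonal hybrid of mouse spinal motor neurons and neuroblastoma cells at passage 10-12, transiently transfected with plasmids for GFP (the control), hTDP-43 WT or hTDP-43 A315T, with 2 cultures of each. The other set came from primary cortical neurons taken at embryonic day 16 from C57BL/6J mice that were wild type (WT, 2 cultures) or carried a Prp-driven hTDP-43 WT or hTDP-43 A315T transgene (3 cultures each), and harvested after 14 days in vitro. All neuron cultures received 0.5 µM Ara-C, a nucleoside that stops DNA synthesis, on day 4 in vitro, and MN1 cells received 100 µg/mL cycloheximide for 3 min before lysis. Cell type, transfection, Ara-C, cycloheximide and the date in the labels differed together between the sets. Their parts in a difference between MN1 cells and neurons therefore cannot be told apart. WT below means neurons without a transgene, hTDP-43 the wild-type human protein and A315T its variant. Nothing in the labels says that replicates came from separate animals or thaws, so p-values measure the spread between these cultures only.

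A dividing cell passes through G1, copies its DNA in S phase, and separates its chromosomes in mitosis. D and E cyclins with their kinases release E2F transcription factors, which turn on replication genes. Mitotic genes are turned on later through the CHR and CCAAT elements of their promoters, and CDK inhibitors hold the cyclin kinases back in cells that stop dividing. Cortical neurons are born from dividing progenitors and leave the cycle for good.

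The elements known from promoters of replication and of mitotic genes are shown in 5 promoters, 2 of replication genes and 3 of mitotic genes, all far higher in MN1 cells than in neurons. The windows come from RefSeq (GRCm38.p6), run 5′ to 3′ from 250 bases before to 30 bases after the annotated start, and carry the matched letters in capitals. E2F sites (TTTCGCGC, TTTGGCGC or TTCCCGCC, on either strand, matches may overlap) are capitals in Mcm6 (chr1:128359676-128359955, minus strand) and Mcm5 (chr8:75109259-75109538, plus strand), and both genes encode subunits of the helicase that opens DNA.
Mcm6: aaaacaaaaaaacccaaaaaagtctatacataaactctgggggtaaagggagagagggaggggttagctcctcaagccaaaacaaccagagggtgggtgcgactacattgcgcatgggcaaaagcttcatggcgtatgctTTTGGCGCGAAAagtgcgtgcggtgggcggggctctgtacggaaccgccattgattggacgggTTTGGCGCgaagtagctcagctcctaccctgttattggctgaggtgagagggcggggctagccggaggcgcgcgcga
Mcm5: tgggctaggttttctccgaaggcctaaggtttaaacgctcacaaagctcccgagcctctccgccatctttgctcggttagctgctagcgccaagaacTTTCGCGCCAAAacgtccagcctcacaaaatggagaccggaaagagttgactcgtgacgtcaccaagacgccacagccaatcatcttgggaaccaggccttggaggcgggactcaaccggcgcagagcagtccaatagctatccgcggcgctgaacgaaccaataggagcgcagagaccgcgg
CHR (TTTGAA or TTTAAA) and CCAAT letters, on either strand, are capitals in Ccnb1 (chr13:100786457-100786736, minus strand), which encodes cyclin B1, in Cdk1 (chr10:69352883-69353162, minus strand), its kinase, and in Top2a (chr11:99024160-99024439, minus strand), the topoisomerase that untangles sister chromosomes.
Ccnb1: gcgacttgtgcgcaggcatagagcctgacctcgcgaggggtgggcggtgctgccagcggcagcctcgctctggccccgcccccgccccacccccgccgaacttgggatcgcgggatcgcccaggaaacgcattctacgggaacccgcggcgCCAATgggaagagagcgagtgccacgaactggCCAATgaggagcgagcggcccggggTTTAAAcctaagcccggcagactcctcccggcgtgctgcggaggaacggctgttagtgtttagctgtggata
Cdk1: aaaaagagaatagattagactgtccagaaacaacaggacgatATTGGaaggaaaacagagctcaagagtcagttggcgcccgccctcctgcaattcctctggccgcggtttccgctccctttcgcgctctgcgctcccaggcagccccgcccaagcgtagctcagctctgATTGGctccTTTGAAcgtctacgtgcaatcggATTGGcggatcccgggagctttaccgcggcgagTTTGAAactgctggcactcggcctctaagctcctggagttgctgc
Top2a: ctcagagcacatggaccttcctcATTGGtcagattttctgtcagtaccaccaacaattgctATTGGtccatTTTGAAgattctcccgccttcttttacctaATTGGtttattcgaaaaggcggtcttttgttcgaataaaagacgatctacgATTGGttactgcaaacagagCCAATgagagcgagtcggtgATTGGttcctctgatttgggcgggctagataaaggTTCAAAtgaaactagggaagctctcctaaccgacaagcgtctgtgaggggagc
There were 3 E2F matches in the Mcm6 window and 2 in that of Mcm5. CHR and CCAAT matches together came to 3 in Ccnb1, 5 in Cdk1 and 8 in Top2a.

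Windows were given for 37 of the 46 genes, 41 windows in all, and for 27025 genes of the genome in 32851 windows, searched from 250 bases before to 50 after the start. E2F letters stood in 7 of the 41 windows (17.1%) against 2.96% of all windows, CHR letters in 20 (48.8%) against 27.6%, CCAAT letters in 30 (73.2%) against 37.4%, and CHR with CCAAT in 18 (43.9%) against 10.7%. Replication genes held E2F letters in 5 of 10 windows, CHR letters in 3 and CCAAT letters in 9. Mitotic cyclins and kinases held E2F letters in 1 of 6 windows, CHR letters in 5 and CCAAT letters in 6, and the chromosome and spindle genes held E2F letters in 0 of 12, CHR letters in 10 and CCAAT letters in 10. G1/S regulators held E2F letters in 1 of 6, CHR letters in 1 and CCAAT letters in 2. CCAAT letters were thus frequent in replication as well as in mitotic genes, and the E2F match among the mitotic cyclins and kinases is that of Cdk1, left in lower case above. Also in lower case above are the CHR and CCAAT letters of Mcm5 and the CCAAT letters of Mcm6. CDK inhibitors held E2F letters in 0 of 7 windows, CHR letters in 1 and CCAAT letters in 3. These are letter matches in a window, without evidence of binding. Ccna2, Ccnd1, Ccnd2, Ccne2, Mcm4, Tpx2, Aurkb, Cdc25c and Kif20a had no window.

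Reads assigned to genes numbered 1328528 to 2988339 in MN1 total mRNA, 332370 to 1219222 in MN1 footprints, 600385 to 6969578 in neuron total mRNA and 166064 to 2528820 in neuron footprints. Levels are given as CPM, the counts scaled to a common library total after TMM normalization over all 28 libraries, and 3 counts in 1 library corresponded to 0.430 to 5.00 CPM in neuron total mRNA and to 1.19 to 18.1 CPM in neuron footprints. The neuron marker list (8 genes, Tubb3 and Rbfox3 among them) summed to 4333 to 5185 CPM in neuron total mRNA and to 407.1 to 514.7 in MN1 cells. In neuron total mRNA the lists for neural progenitors summed to 66.9 to 92.9 CPM, astrocytes to 69.3 to 163, the oligodendrocyte lineage to 49.2 to 125, fibroblasts and meninges to 3.71 to 35.9, endothelium and pericytes to 2.01 to 9.93 with Cldn5 at 0, and microglia to 1.11 to 7.77. The total mRNA libraries of neuron WT 3 and hTDP-43 3 stood apart, with 18.8% and 14.1% of their reads on Lars2, against 3.09% to 7.49% in the other 12 total mRNA libraries. Mouse Tardbp, which checks the transfection only as far as human transcripts map to the mouse gene, was at 229.5 ± 14.9 CPM in GFP, 374.5 ± 46.4 in hTDP-43 and 394.6 ± 28.9 in A315T MN1 total mRNA (SD, n = 2 each), and at 91.2 ± 34.9 in WT (n = 2), 73.1 ± 15.6 in hTDP-43 and 76.2 ± 8.96 in A315T neuron total mRNA (n = 3 each), with no rise in the transgenic neurons.

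The cell cycle genes took a small and very different part of the 2 transcriptomes. They received 0.658% to 0.995% of the reads of MN1 libraries and 0.0557% to 0.117% of those of neuron libraries. Summed over the 46 genes, MN1 total mRNA held 5446 to 6597 CPM with a median of 5903, and neuron total mRNA 702.3 to 1047 with a median of 757.8. In footprints the sums were 6834 to 8963 in MN1 cells (median 7695) and 700.0 to 1372 in neurons (median 783.0). No library of either cell type reached the range of the other. In bulk libraries fewer cells of a type and less RNA per cell cannot be told apart, and this holds for every level below.

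Detection followed the same split. In MN1 total mRNA 45 of the 46 genes had at least 10 counts in every library, and 40 had them in footprints. In neurons 7 genes did so in total mRNA and 2 in footprints, while 32 and 21 reached 10 counts in at least 1 library. Between 1 and 15 of the genes were at 0 in a given neuron total mRNA library and between 4 and 27 in a footprint library. No gene was at 0 in every library of a cell type.

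**Figure D1:**
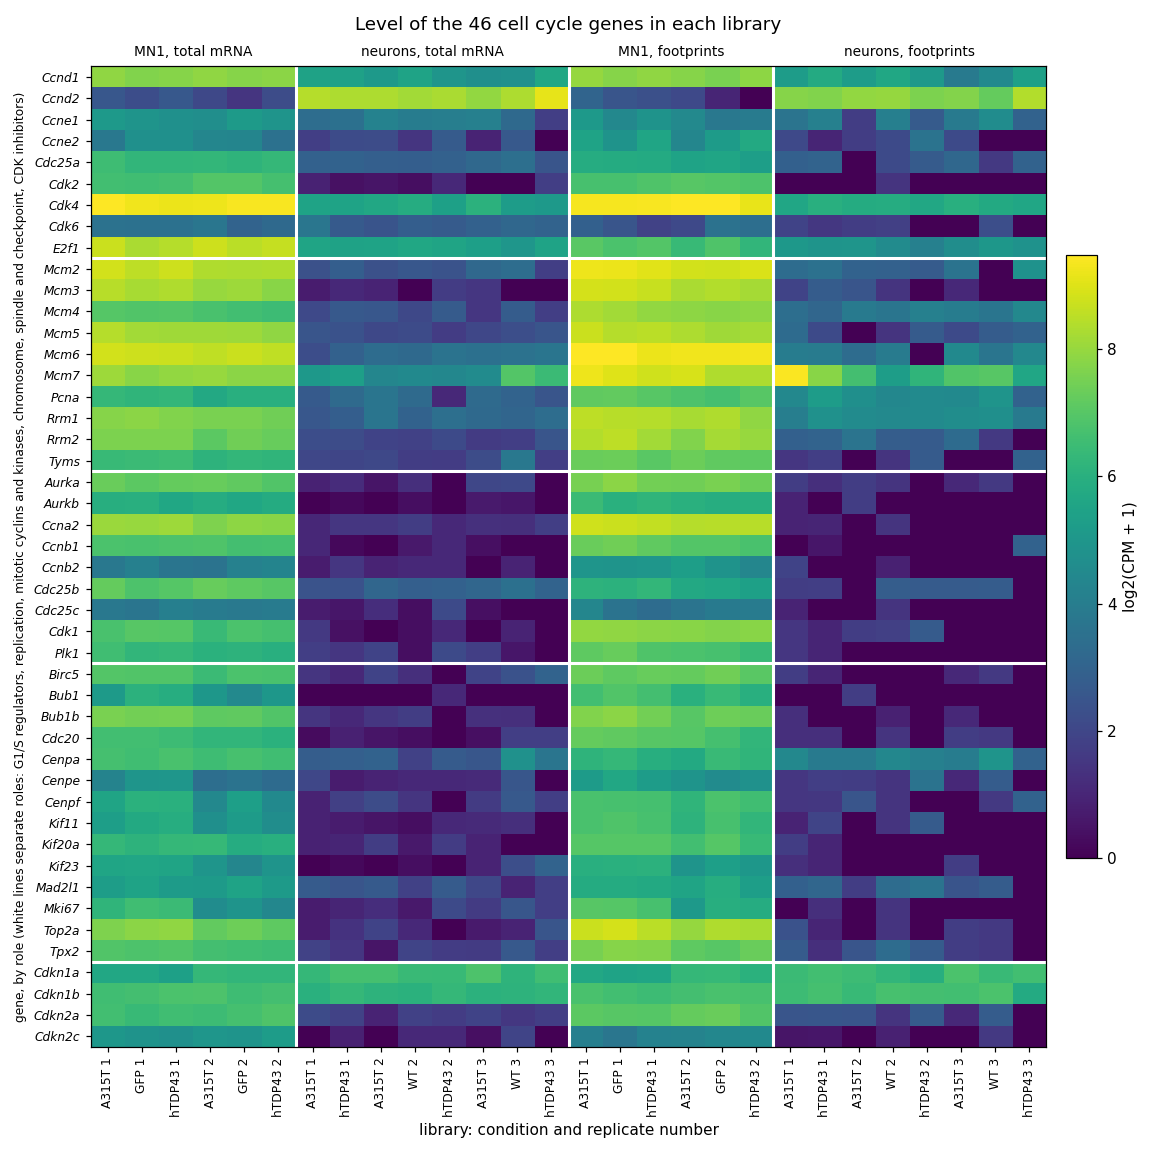
Heat map of log2(CPM + 1) for the 46 cell cycle genes (vertical, ordered by role) in the 28 libraries (horizontal, by cell type and library type). MN1 columns are filled for nearly all genes. Neuron columns are highest for Ccnd2, Cdkn1a, Cdkn1b, Cdk4, E2f1, Ccnd1 and, most variably, Mcm7. They are intermediate for some genes, such as Rrm1, Pcna and Ccne1, and near 0 for most of the rest.

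Ranked per transcript length (median RPKM over libraries, the CPM divided by exon length in kilobases), the order of the genes differed between the cell types. In MN1 total mRNA Cdk4, the kinase that cyclin D binds, came first at 195.5 RPKM, followed by E2f1 at 120.5, Mcm2 at 102.5, Mcm6 at 89.7 and the inhibitor Cdkn2a at 81.9. In neuron total mRNA Ccnd2, cyclin D2, came first at 55.2 RPKM, followed by Cdkn1a at 40.1, Cdkn1b at 15.04, E2f1 at 14.1 and Cdk4 at 13.7. The G1 regulators and inhibitors therefore made up the head of the neuron list. In CPM, the 9 G1/S regulators and 4 inhibitors summed to medians of 468.0 and 166.6 in neuron total mRNA, against 70.7 for the 10 replication genes, 24.1 for the 14 chromosome and spindle genes and 14.1 for the 9 mitotic cyclins and kinases.

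Compared between cell types in total mRNA, 44 of the 46 genes were higher in MN1 cells and 2, Ccnd2 and Cdkn1a, were lower (edgeR quasi-likelihood test, adjusted over 12801 genes, threshold 0.05). Only 32 of the 46 reached 10 counts in any neuron total mRNA library. Genes with few neuron reads passed the low-count filter through their MN1 counts, so higher in MN1 cells was the only call open to them. Most genes differed between these cells, with 38.4% of all genes tested higher and 42.6% lower, and the median log2 difference was 5.20 over the 46 genes against -0.09 over all. Scaling by total counts alone turned the split of all genes from 4914 higher and 5455 lower to 5988 higher and 4408 lower, and moved the median of all genes to 0.34. As ratios of pooled CPM, 35 of the 46 genes were over 10-fold and 10 over 100-fold higher in MN1 cells, with a median of 36.9. The ranges of the 6 MN1 and 8 neuron libraries did not overlap for 43 genes that were higher and 1 that was lower, against 28.8% and 33.8% of all genes. Without neuron WT 3 and hTDP-43 3, 45 genes were called, 43 higher and 2 lower.

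The mitotic cyclins and kinases were all higher in MN1 cells (9 of 9), with a median pooled ratio of 96.3. Ccnb1 ranged from 99.6 to 114 CPM (median 107.9) in MN1 total mRNA and from 0 to 1.10 (median 0.232) in neurons. Its neuron reads numbered 10 in all, against 1521 in MN1 cells, a pooled ratio of 248. Cdk1, the kinase that carries cells into mitosis, was at 85.03 to 129 CPM (median 107.5) in MN1 cells and at 0 to 1.96 (median 0.309) in neurons, with a log2 difference of 7.51. For both genes every neuron library lay far under the lowest MN1 library.

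All 14 chromosome, spindle and checkpoint genes were higher in MN1 cells, with a median pooled ratio of 51.4. Top2a was at 137 to 235 CPM (median 180.9) in MN1 cells and at 0 to 4.70 (median 1.05) in neurons, a pooled ratio of 148. Mki67, whose protein coats mitotic chromosomes and marks cycling cells, was at 19.7 to 93.9 CPM (median 50.3) in MN1 cells and at 0.576 to 4.73 (median 1.73) in neurons, a pooled ratio of 36.0. Bub1, a spindle checkpoint kinase, had 552 reads in MN1 cells and 1 in neurons, a ratio of 900 with a 95% counting interval of 161 to 35600. Such intervals cover counting error only, and fitted log2 differences of genes at 0 in all libraries of a neuron condition (Bub1 and Mcm3 in total mRNA) depend on the prior count.

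All 10 replication genes were higher in MN1 cells, with a median pooled ratio of 40.9. Mcm3 was at 221 to 346 CPM (median 284.8) in MN1 cells and at 0 to 2.21 (median 0.783) in neurons, a pooled ratio of 338 with a counting interval of 218.5 to 554. Mcm2 ranged from 313 to 447 CPM (median 345.6) in MN1 cells and from 2.35 to 9.46 (median 4.66) in neurons. Mcm6 and Mcm5, with the E2F letters shown above, had log2 differences of 5.69 and 6.28. Pcna, the clamp that holds the polymerase on DNA, was at 51.9 to 77.4 CPM (median 67.6) in MN1 cells and at 1.10 to 11.9 (median 7.86) in neurons, a pooled ratio of 8.65. The lowest ratio in this group was that of Mcm7, at 6.26.

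The G1/S regulators were less uniform. Among the 9, 8 were higher and 1 lower in MN1 cells, with a median pooled ratio of 6.62. Cdk2, the partner of cyclin E, was at 92.8 to 122 CPM (median 99.5) in MN1 cells and at 0 to 2.35 (median 0.393) in neurons, with a log2 difference of 8.04 ± 0.31 (SE). Ccnd1, cyclin D1, was at 202 to 239 CPM (median 220.2) in MN1 cells and at 25.2 to 49.3 (median 37.8) in neurons, a log2 difference of 2.67. Cdk6, the other partner of D cyclins, differed least, by 0.60 ± 0.26 (SE, edgeR adjusted p = 0.0439).
Ccnd2 went the other way. It was at 1.77 to 5.07 CPM (median 3.66) in MN1 total mRNA and at 246 to 552 (median 314.6) in neurons, so that no library of one cell type came near the other. The log2 difference was -6.40 ± 0.23 (SE, edgeR adjusted p = 5.29e-12), and the pooled ratio of MN1 cells to neurons was 0.0121 (counting interval 0.00905 to 0.0158). Per transcript length, median Ccnd1 and Ccnd2 levels were 57.4 and 0.641 RPKM in MN1 total mRNA and 9.86 and 55.2 in neurons, so that the order of these D cyclins was opposite in the cell types.

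Of the 4 CDK inhibitors, 3 were higher and 1 lower in MN1 cells. Cdkn2c, an inhibitor of Cdk4 and Cdk6, was at 25.8 to 36.4 CPM (median 29.97) in MN1 cells and at 0 to 2.84 (median 0.562) in neurons. Cdkn2a, from the locus that encodes p16 and p19Arf, was at 82.2 to 116 CPM (median 96.0) in MN1 cells and at 0.911 to 3.49 (median 2.47) in neurons, a pooled ratio of 37.9. Cdkn1b (p27) was at 90.4 to 112 CPM (median 99.1) in MN1 cells and at 64.1 to 77.4 (median 68.5) in neurons, a log2 difference of 0.60 ± 0.10 (SE). Cdkn1a (p21), a target of p53, was at 40.6 to 77.9 CPM (median 62.6) in MN1 cells and at 71.4 to 113 (median 89.1) in neurons, with overlapping ranges. Its log2 difference of -0.47 ± 0.17 (SE, edgeR adjusted p = 0.0202) was not called with scaling by total counts alone (-0.04, adjusted p = 0.875) or without any 1 of the MN1 replicate 1 cultures.

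Footprints gave nearly the same split. Of 45 genes tested (Cdk6 did not pass the filter on low counts), 43 were higher in MN1 cells and 2, Ccnd2 and Cdkn1a, were lower, against 39.9% and 42.7% of the 10698 genes tested. Here only 21 of the members reached 10 counts in any neuron library, and genes with few neuron reads again passed through their MN1 counts. Calls in both library types were shared by 43 genes that were higher and 2 that were lower. The median pooled ratio was 43.3, with 34 genes over 10-fold and 14 over 100-fold, and the libraries did not overlap for 40 higher genes and 1 lower gene (24.7% and 34.4% of all genes). Ccnd2 footprints were at 0 to 7.21 CPM (median 3.61) in MN1 cells and at 148 to 330 (median 212.0) in neurons, a log2 difference of -5.73 ± 0.26 (SE). Footprints of 11 genes, Mki67, Ccnb1, Cdk2 and Plk1 among them, were at 0 in every library of a neuron condition, and 4 genes had 3 or fewer neuron footprint reads in all. The calls of Cdkn1a (-0.38, edgeR adjusted p = 0.0404) and Cdkn1b (0.26, adjusted p = 0.0493) were lost without the filter on low counts and with DESeq2, that of Cdkn1a also with both other scalings and without MN1 GFP 1, MN1 hTDP-43 1, neuron hTDP-43 1 or neuron WT 3, and that of Cdkn1b without any single culture other than neuron hTDP-43 1. Without neuron WT 3 and hTDP-43 3, 44 of 46 genes were called, 43 higher and 1 lower.

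**Figure D2:**
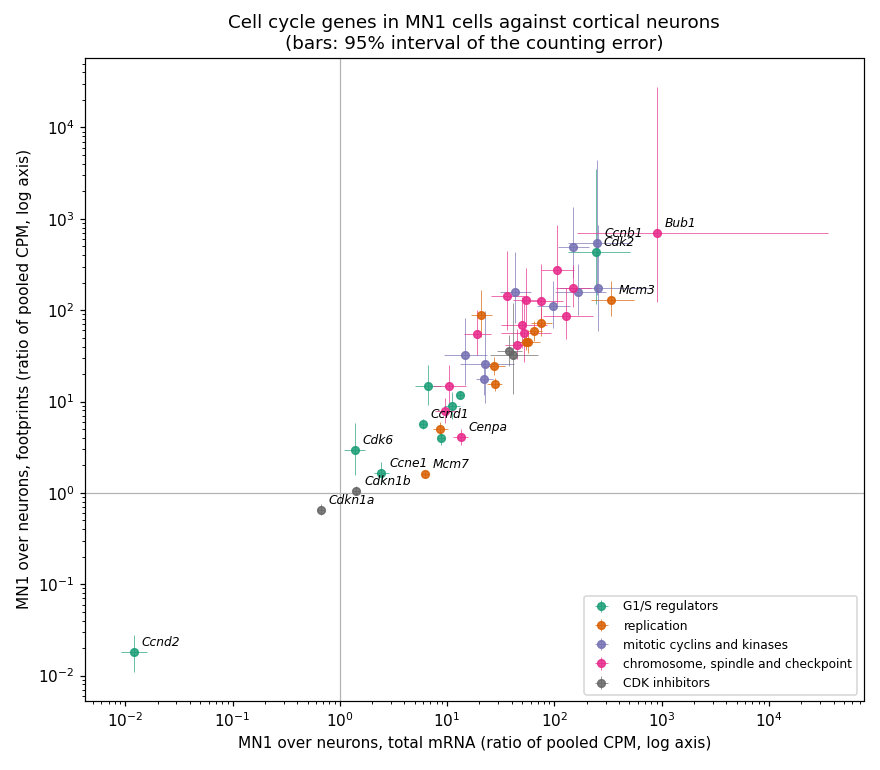
Ratio of pooled CPM in MN1 cells over neurons for each cell cycle gene (log axis), in total mRNA and in footprints, with 95% counting intervals as bars and genes grouped by role. Mitotic, chromosome and replication genes lie mostly above 10, the G1/S regulators and CDK inhibitors spread around lower ratios, and Ccnd2 lies far below 1.

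Mcm7 was the replication gene with the highest neuron levels and the least even ones. In neuron total mRNA it was at 32.5 CPM in A315T 1, 40.2 in hTDP-43 1, 21.6 in WT 2, 19.9 in hTDP-43 2, 19.1 in A315T 2, 122 in WT 3, 86.9 in hTDP-43 3 and 22.5 in A315T 3. The 2 high values belonged to the libraries rich in Lars2. In neuron footprints it was at 221.8 CPM in hTDP-43 1, 683.9 in A315T 1, 37.6 in WT 2, 72.2 in hTDP-43 2, 99.1 in A315T 2, 127 in WT 3, 48.2 in hTDP-43 3 and 118 in A315T 3. Here both replicate 1 cultures were highest, and 1474 of the 2214 neuron footprint reads of the gene came from A315T 1. The pooled ratio of MN1 cells to neurons was 6.26 in total mRNA and 1.59 in footprints. Mcm7 (ENSMUSG00000029730) lies on chromosome 5 (GRCm38, 138164583 to 138172422, minus strand), carries 3 miRNA genes within its span, of which Mir25 and Mir93 lie in its annotated exons, and shares 7.25% of its exon bases with Ap4m1 and 1.45% with Cops6. Whether miRNA precursors or the overlaps add to its reads was not tested.

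Cenpa and Tyms were also far above the others in the total mRNA of neuron WT 3. Cenpa, the histone of centromeres, was at 26.96 CPM in neuron WT 3 and 11.7 in hTDP-43 3 total mRNA, and at 2.59 to 6.83 in the other 6 libraries. The hTDP-43 3 value rests on few reads, with a scaled library total of 425832. Tyms, which makes thymidylate, was at 12.8 CPM in WT 3 and at 2.21 to 3.60 in the other 7. Both WT 3 and hTDP-43 3 had a high share of Lars2 reads, but Tyms in hTDP-43 3 (2.35 CPM) was not raised. The part of that share in the levels was not tested. Exons of 10 of the 46 genes overlapped those of another gene. The counting was not stated to use strand, so reads from Kif20a (33.2% of its exon bases shared with Cdc23), Ccnd1 (21.3%), Cdk4 (18.6%), Ccne2 (17.4%) and Ccna2 (12.5%) are less certain than the rest.

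The MN1 cultures also differed by the date in their labels, which is their replicate number: replicate 1 was dated 17 April (1 footprint library names another year) and replicate 2 22 May. With the transfected protein as a covariate, total mRNA of 19 members was lower and of 1 member, Cdkn1a, higher in replicate 2 (edgeR, 46 tested of 10277, of which 6.42% were called higher and 8.52% lower). The median log2 difference was -0.235 over the members and -0.005 over all genes, with 35 members negative and 11 positive. By role, 10 of 14 chromosome and spindle genes, 6 of 10 replication genes and 3 of 9 mitotic cyclins and kinases were lower, and 0 of 9 G1/S regulators was called. Ranges of the 3 libraries of each date did not overlap for 22 members that were lower and 2 that were higher (13.4% and 12.3% of all genes). Of the 53 cell type markers 19 were tested, and 3 were called, all higher in replicate 2: the neuron marker Stmn2 (2.07), the astrocyte marker Aldoc (1.52) and the progenitor marker Vim (0.28). In footprints 3 of 13 were called, again higher, Aldoc (1.41), Kdr of the endothelium list (1.29) and Vim (0.42). Summed over the lists, astrocyte markers were at 34.1 to 44.1 CPM in replicate 1 and 59.0 to 64.9 in replicate 2 total mRNA, progenitor markers at 249 to 311 and 331 to 336, motor neuron and MN1 line markers at 139 to 158 and 162 to 177, and the other 5 lists overlapped between the dates. In MN1 total mRNA the astrocyte sum came mainly from Sox9 (median 37.3 CPM) and Aldoc (11.9), while Gfap and Aqp4 had medians of 0. The progenitor sum came mainly from Vim (median 281.6 CPM), with Sox2 at 0.497. These sums therefore do not measure astrocytes or progenitors in MN1 cultures. The part of the marker differences in the members' differences was not tested.

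Mki67 differed most. In total mRNA its level was 93.9 CPM in GFP 1, 85.8 in hTDP-43 1 and 71.5 in A315T 1, and 29.05 in GFP 2, 19.7 in hTDP-43 2 and 23.3 in A315T 2. All 3 replicate 2 cultures were thus under every replicate 1 culture, with a log2 difference of -1.80 ± 0.14 (SE, edgeR adjusted p = 2.12e-07). Cenpf, a kinetochore protein of late G2 and mitosis, was at 65.1, 64.1 and 45.0 CPM in replicate 1 and at 40.0, 21.5 and 20.6 in replicate 2, in the order GFP, hTDP-43, A315T, a difference of -1.09 ± 0.15 (SE, adjusted p = 0.000226). Cenpe, the kinetochore motor, was at 29.9, 30.4 and 17.7 CPM in replicate 1 and at 11.3, 8.945 and 9.85 in replicate 2, a difference of -1.34 ± 0.22 (SE). Top2a was at 228.9, 235.2 and 197.8 CPM against 164.0, 137.2 and 145.5, a difference of -0.57 ± 0.08 (SE). Bub1b, the checkpoint kinase BubR1, was at 177 (GFP), 177 and 188 CPM against 141, 120 and 137, a difference of -0.46.

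Cdkn1a moved the other way. It was at 50.7 CPM in GFP 1, 40.6 in hTDP-43 1 and 50.6 in A315T 1, and at 74.8 in GFP 2, 74.5 in hTDP-43 2 and 77.9 in A315T 2. The dates did not overlap, and the log2 difference was 0.66 ± 0.12 (SE, edgeR adjusted p = 0.00131). The other inhibitors were not called. The other decreases that passed the test were those of Bub1 (-0.92), Kif23 (-0.85), Kif11 (-0.81), Cdc20 (-0.41), Mcm3 (-0.40), Pcna (-0.39), Mcm2 (-0.38), Rrm2 (-0.36), Plk1 (-0.35), Tpx2 (-0.32), Mcm4 (-0.31), Ccna2 (-0.30), Cdk1 (-0.29) and Rrm1 (-0.26). Ccnb1 was at 107, 114 and 109 CPM in replicate 1 and 99.6, 100.2 and 114 in replicate 2, with overlapping ranges, and was not called.

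In footprints 7 of 44 members were called between the dates, 6 lower and 1 higher (of 8535 genes, 2.1% were lower and 2.64% higher). Mki67 footprints were at 125.8, 103.5 and 128.2 CPM in replicate 1 and at 60.9, 57.6 and 34.1 in replicate 2, a difference of -1.16 ± 0.17 (SE, edgeR adjusted p = 0.000343). Cdkn1a footprints were at 44.1, 46.4 and 49.7 CPM against 79.6, 64.8 and 77.9, a difference of 0.78 ± 0.17 (SE, adjusted p = 0.0102). Kif23, a kinesin of the cleavage furrow, was at 63.8, 66.3 and 61.7 CPM against 39.3, 31.2 and 29.2, a difference of -0.81. Top2a was at 470.2, 363.6 and 415.8 CPM against 326.0, 302.3 and 253.2, a difference of -0.42, and Mcm3 at 448.6, 406.0 and 466.2 against 335.9, 295.1 and 306.8, a difference of -0.40. In each of these genes the dates did not overlap. Tpx2 (-0.47) and Mcm7 (-0.40) were also called. Cdkn1a, Mki67, Kif23, Mcm3, Top2a and Tpx2 were called in the same direction in both library types. Libraries did not overlap for 20 lower and 2 higher members, against 16.4% and 6.85% of all genes.

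Differences between the dates also ran with gene length, in all genes (Spearman rho -0.20 over 10277 genes in total mRNA) and in the members (-0.464, 46 genes). These correlations are across genes of the same libraries and genes are not independent. With the trend of each library on gene length removed, an alternative chosen after the data were seen, 22 members were called in total mRNA, 1 higher and 21 lower, and 6 in footprints. DESeq2 called 10 members in total mRNA (1 higher, 9 lower) and 0 in footprints, where 3 members had an unadjusted p under 0.05. Without GFP 1 or GFP 2, 13 and 12 members were called in total mRNA, and 2 and 2 in footprints. In footprints 4 were called without A315T 1, 4 without A315T 2 and 10 without either hTDP-43 culture.

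**Figure D3:**
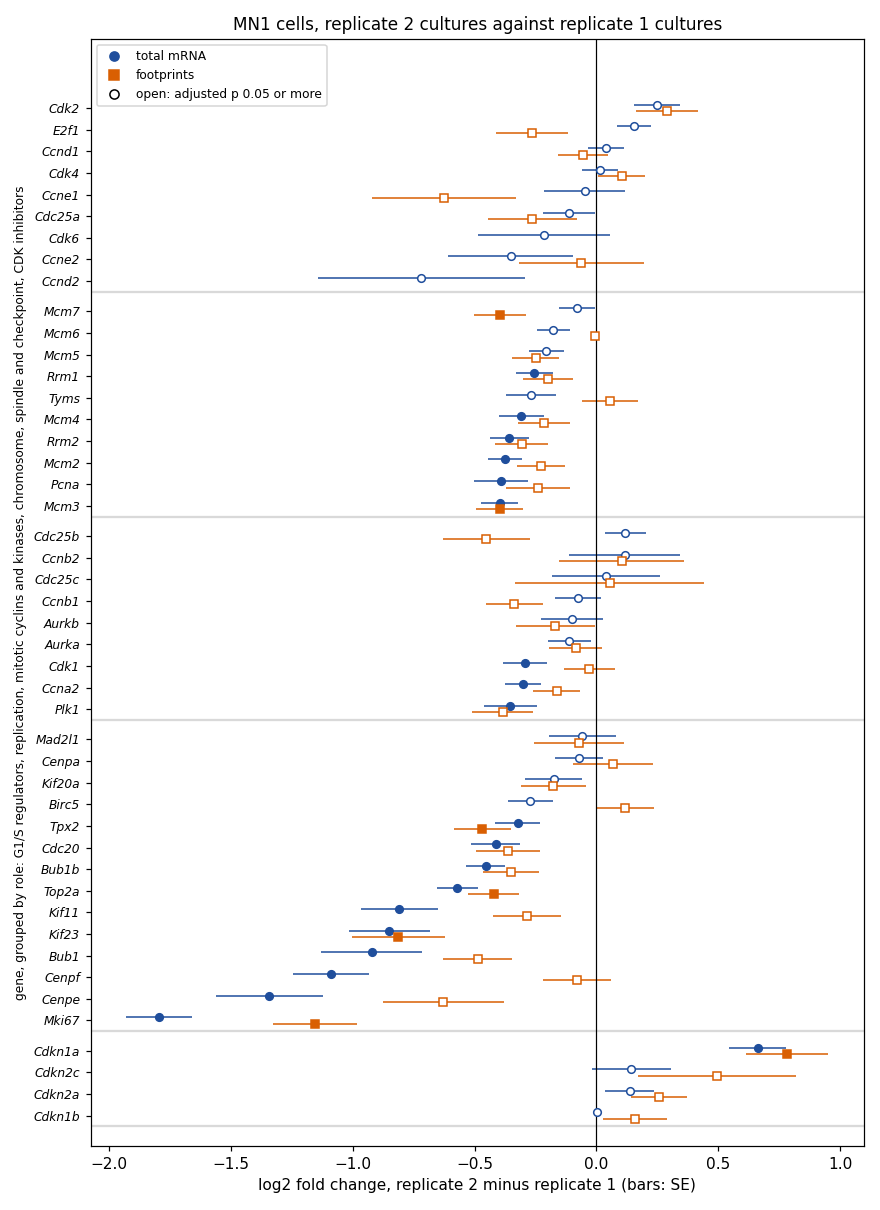
Log2 difference between MN1 replicate 2 and replicate 1 cultures for each cell cycle gene, in total mRNA and footprints, with standard errors as bars and genes grouped by role. Mki67 has the lowest values, at -1.80 and -1.16, and Cdkn1a lies at 0.66 and 0.78 on the other side of 0.

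Among neuron cultures the 3 label dates gave no call in total mRNA (0 of 24 members tested by edgeR, 1 with an unadjusted p under 0.05, DESeq2 0 with 1, and 0.0733% of all genes called). In footprints 1 of 13 members was called, Mcm7 (adjusted p = 1.38e-06, 2.36% of all genes called). It was not called without A315T 1. Without A315T 3, 2 members were called in total mRNA.

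Footprints relative to total mRNA describe how many ribosome-protected fragments a gene gave for its mRNA level, on a scale relative to the other genes of the same libraries. Fits of this relation held no term for culture, so the footprint and mRNA libraries of a culture were treated as independent. In MN1 cells 29 of 45 members were higher in footprints and 5 lower (edgeR, 10212 genes tested, of which 27.2% were higher and 30.2% lower). The median log2 difference was 0.62 over the members and -0.05 over all genes. Scaling by total counts alone moved the median of all genes to -0.27 and their split from 2773 higher and 3084 lower to 1947 and 4158, and it called 33 members, 27 higher and 6 lower. All 10 replication genes were higher, as were 10 of 14 chromosome and spindle genes and 7 of 9 mitotic cyclins and kinases. Of 8 G1/S regulators 1 was higher and 2 lower.

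Mcm4 stood among the highest. Its total mRNA was at 89.45 to 123 CPM (median 113.1) and its footprints at 223 to 318 (median 237.6), a log2 difference of 1.365 ± 0.11 (SE, edgeR adjusted p = 2.50e-07). Cdk1 was at 85.03 to 129 CPM in total mRNA and at 208 to 242 (median 223.7) in footprints, a difference of 1.20 ± 0.10 (SE, adjusted p = 2.22e-07). Top2a was at 137 to 235 CPM in total mRNA and at 253 to 470 (median 344.8) in footprints, a difference of 1.09. Mcm7 differed by 1.02 and Kif11, the motor that pushes spindle poles apart, by 1.45 ± 0.20 (SE). The footprint and mRNA libraries of Mcm4, Cdk1 and Top2a did not overlap.

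E2f1 went the other way. Its total mRNA was at 309 to 435 CPM (median 380.2) and its footprints at 74.4 to 131 (median 112.8), with no overlap and a log2 difference of -1.66 ± 0.12 (SE, edgeR adjusted p = 8.87e-08). The other members with fewer footprints than mRNA were the phosphatases Cdc25b (-1.02) and Cdc25a (-0.49), the inhibitor Cdkn2c (-0.68) and Cenpa (-0.35). The members' coding part made up a median of 42.3% of their exon length, against 34.3% for all genes, and its share had a Spearman rho of 0.435 with the log2 difference over the 45 members and 0.075 over all genes. Footprints come from the coding part while mRNA reads come from the whole transcript, and the part of this in the difference was not tested further. With the replicate block 38 members were called (33 higher, 5 lower), adding Mki67 (0.82), Kif23 (0.58), Bub1b (0.29) and Cdk2 (0.27) as higher, and with the length trend removed also 38 (34 higher, 4 lower).

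In neurons 21 members passed the filter, which kept those with enough reads, and 8 were higher in footprints and 3 lower (of 11654 genes, 26.6% were higher and 27.3% lower). Rrm1, a subunit of ribonucleotide reductase, was at 5.01 to 11.9 CPM (median 7.985) in total mRNA and at 13.8 to 26.8 (median 22.6) in footprints, a log2 difference of 1.56 ± 0.24 (SE, edgeR adjusted p = 2.85e-05). Pcna footprints were at 6.88 to 36.4 CPM (median 21.85), a difference of 1.74 ± 0.29 (SE, adjusted p = 7.06e-05). Mcm4 differed by 1.55 ± 0.32 (SE), Cenpa by 1.11, Rrm2 by 1.04, Mad2l1 by 0.96 and Cdkn1b by 0.49 ± 0.12 (SE, adjusted p = 0.00184). Rrm1 footprint and mRNA libraries did not overlap, and those of Pcna did.

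Mcm7 differed by 1.84 ± 0.47 (SE, edgeR adjusted p = 0.00317), and by 1.41 (adjusted p = 0.0636) without neuron hTDP-43 1. The 3 lower members were Cdk6 (-1.66, adjusted p = 0.00385), E2f1 (-0.61, adjusted p = 0.00401) and Ccnd2 (-0.53, -0.34 with adjusted p = 0.0557 after the length trend was removed). Ccnd2 was at 246 to 552 CPM in neuron total mRNA and at 148 to 330 in footprints, with overlapping ranges. Called the same way in both cell types were Mcm4, Mcm7, Pcna, Rrm1, Rrm2 and Mad2l1 as higher and E2f1 as lower. Calls in neurons fell to 6 without hTDP-43 1 and to 7 without A315T 1, and numbered 11 (8 higher, 3 lower) of 29 tested without WT 3 and hTDP-43 3. With the replicate block Mcm6 was called too (0.84, edgeR adjusted p = 0.0263), against 0.73 (adjusted p = 0.0627) without it.

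**Figure D4:**
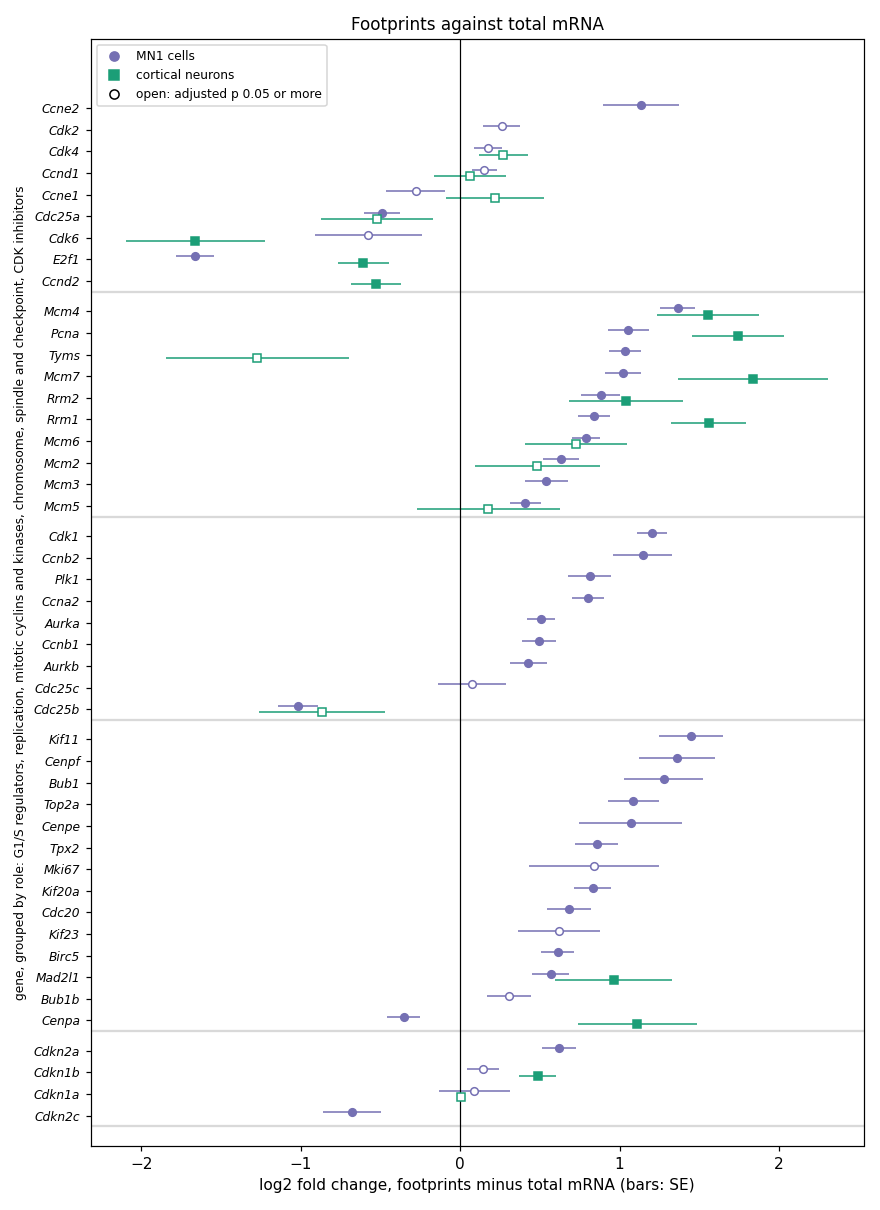
Log2 difference between footprints and total mRNA for each cell cycle gene in MN1 cells and in neurons, with standard errors as bars and genes grouped by role. Replication genes lie above 0 in MN1 cells, and E2f1 lies below 0 in both cell types, at -1.66 and -0.61.

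Tested as an interaction, the footprint to mRNA ratio differed between MN1 cells and neurons for 5 of 46 members. Of these, 2 were higher in MN1 cells and 3 lower (edgeR, 12358 genes tested, of which 2.13% were higher and 5.94% lower). The count was thus near the share over all genes. E2f1 was lower by -1.17 ± 0.21 on the log2 scale (SE, adjusted p = 0.00105), Cenpa by -1.605 ± 0.40 (SE, adjusted p = 0.0139) and Rrm1 by -0.86 ± 0.24 (SE, adjusted p = 0.0254). Tyms (2.18 ± 0.50 (SE), adjusted p = 0.00817) and Ccna2 (1.64 ± 0.45 (SE), adjusted p = 0.0347) were higher, on 13 and 6 neuron footprint reads in all. E2f1 was at 30.3 to 48.9 CPM (median 44.4) in neuron total mRNA and at 16.7 to 32.0 (median 28.4) in footprints, an mRNA excess smaller than that in MN1 cells. Cycloheximide before lysis was given to MN1 cells and Ara-C to neurons, so that these and cell type cannot be told apart here. Scaling moved the median of all genes from -0.20 to 0.02 with RLE and to -0.32 with total counts, and RLE turned their split from 263 higher and 734 lower to 417 and 187. Under RLE 4 members were called, without Rrm1. With the replicate block 8 were called, 3 higher and 5 lower (10.7% of all genes called). Added were Pcna (-0.82, edgeR adjusted p = 0.0268), Mcm3 (-2.02, adjusted p = 0.0478) and Bub1b (2.22, adjusted p = 0.0497). Mcm3 and Bub1b, like Ccna2, did not pass the filter in the fit of neuron footprints against mRNA. They were tested here through their MN1 counts, and their neuron footprints were at 0 to 5.75 CPM (Mcm3) and 0 to 1.39 (Bub1b). Without neuron hTDP-43 1 E2f1 alone was called, 3 were called without each single MN1 culture and without neuron WT 3, and DESeq2 called 3. The call of Rrm1 was lost under RLE, under DESeq2, without each culture just named and without neuron A315T 3, that of Cenpa without MN1 hTDP-43 1 or neuron hTDP-43 1, and that of Tyms without neuron hTDP-43 1. The call of Ccna2 was lost at least under DESeq2, without neuron hTDP-43 1 or neuron WT 3, and without any single MN1 culture other than hTDP-43 1. The size of the Tyms difference also hung on single neuron cultures, at 1.53 without WT 3, 3.54 without A315T 1 and 3.83 without WT 2, and that of Cenpa was -2.29 without WT 3.

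No cell cycle gene was called between conditions in the comparisons as the study paired them. Over 12 comparisons of conditions within a cell type and library type, and 2 of the footprint to mRNA ratio, edgeR called 0 members in 429 tests (9 to 46 members tested in each), 8 of which had an unadjusted p under 0.05. The smallest adjusted p was 0.849, and DESeq2 also called 0, with 3 unadjusted p under 0.05. Few genes of any kind were called: 0.0115% in MN1 footprints of A315T against GFP, 0.00965% in MN1 total mRNA of A315T against GFP, 0.01% in MN1 total mRNA of hTDP-43 against GFP, and 0% in the other 11 comparisons.

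Sizes in MN1 cells were small. Between A315T and GFP total mRNA the members' log2 differences ran from -0.70 (Cenpf) to 0.61 with a median of -0.036, and between hTDP-43 and GFP from -0.315 to 0.31 with a median of -0.007. In footprints they ran from -0.38 to 0.72 for A315T against GFP, with a median of -0.008, and from -0.30 to 0.71 for hTDP-43 against GFP. Both comparisons share the GFP cultures. In neurons the differences were wider on fewer genes, from -1.51 (Mcm7) to 1.30 in A315T against WT total mRNA and from -0.85 to 2.05 (Mcm7) in footprints.

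When cultures were matched by label date (the replicate block), 2 of the comparisons had a called member. In MN1 total mRNA Cenpf was lower in A315T than in GFP by -0.78 ± 0.17 on the log2 scale (SE, edgeR adjusted p = 0.0107), where the block raised the share of all genes called to 2.73%. Its level was 65.1 and 40.0 CPM in the GFP cultures and 45.0 and 20.6 in the A315T cultures, lower in A315T on both dates and overlapping between groups. In neuron footprints Mcm7 was higher in A315T than in hTDP-43 by 1.44 ± 0.18 (SE, adjusted p = 0.000375, 0.179% of all genes called), against 1.09 without the block. The value was -0.475 (adjusted p = 0.785) without neuron A315T 1, the library at 683.9 CPM, in a fit that keeps hTDP-43 1 without its partner of that date. Within dates A315T was above hTDP-43 in 3 of 3 pairs, at 683.9 against 221.8 CPM, 99.1 against 72.2 and 118 against 48.2. The hTDP-43 footprint libraries of replicates 2 and 3 were shallow, with scaled totals of 180002 and 145326 reads, so few Mcm7 reads stand behind them. In total mRNA Mcm7 was lower in A315T than in hTDP-43 in replicate 1, at 32.5 against 40.2 CPM. In replicate 2 it was nearly the same, at 19.1 against 19.9. In replicate 3 it was at 22.5 against 86.9, the latter in the library rich in Lars2. Against WT of the same date, A315T footprints were at 99.1 against 37.6 CPM in replicate 2 and at 118 against 127 in replicate 3. Without the filter on low counts Mcm7 was the member called in 5 of the 14 comparisons, all of neurons. Leaving out 1 culture, which leaves unequal dates in the groups and in small groups a lone culture assumed to vary like the others, gave calls in 3 comparisons of total mRNA. Without MN1 GFP 2, Cenpf, Bub1, Cenpe and Mki67 were lower in A315T than in GFP, without MN1 hTDP-43 2 or hTDP-43 1, 5 members and 1 member differed between A315T and hTDP-43, and without neuron WT 2, Tyms, Cenpa and Mcm7 differed between A315T and WT.

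**Figure D5:**
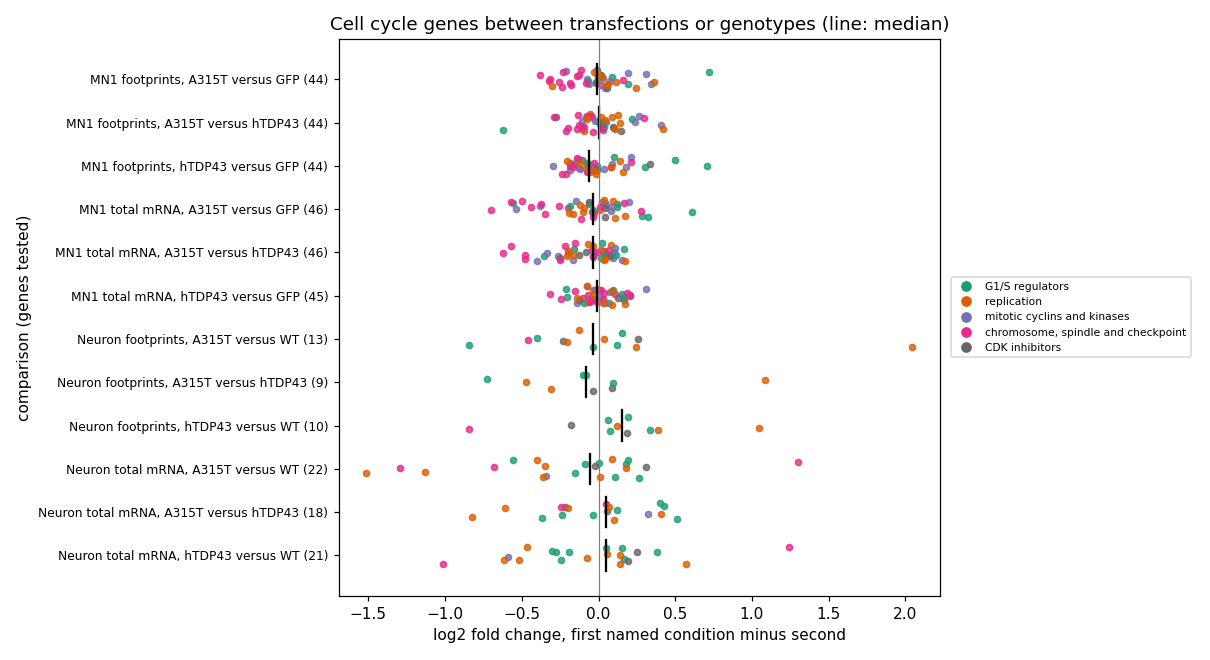
Log2 differences of the cell cycle genes that were tested in each of the 12 comparisons of conditions (1 point per gene, horizontal line at the median). Medians lie near 0 in all MN1 comparisons, and the highest and lowest points in neurons are those of Mcm7, at 2.05 in footprints and -1.51 in total mRNA of A315T against WT.

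Further genes of the pathway were counted from a list of 84 (26 of S phase, 22 E2F, pocket protein and G1 regulators, 36 of mitosis). For the cell type, date and footprint to mRNA comparisons, the shares over all genes are those given above with the members. Between cell types 77 of 82 tested were higher in MN1 total mRNA and 2 lower, and in footprints 76 of 80 were higher and 3 lower. Many of them passed the filter through their MN1 counts, since among neuron libraries alone only 41 (total mRNA) and 20 (footprints) passed it. Between the MN1 dates 17 of 82 were lower in replicate 2 in total mRNA and 2 higher, with 13 of the 36 mitosis genes and 3 of the 26 S phase genes among the lower ones, while in footprints 1 of 80 was lower and 1 higher. In neurons 0 of 41 (total mRNA) and 1 of 20 (footprints) differed between the label dates. Footprints exceeded mRNA in MN1 cells for 47 of 82 and fell short for 7, and in neurons for 8 and 3 of 31, where 26.6% and 27.3% of all genes did so. The ratio differed between cell types for 7 of 82, 6 higher and 1 lower, against 2.13% and 5.94% of all genes. In the 14 condition comparisons 0 were called by edgeR without the replicate block. With that block, A315T against GFP and A315T against hTDP-43 each had 1 lower gene in MN1 footprints, and each 1 in MN1 total mRNA. The study, which used DESeq, lists E2f5, among these 84, as differing with A315T in footprints of both cell types.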

How the data were processed

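Footprints and total mRNA were each sequenced in 14 mouse cultures, and groups came from the labels. Per the labels and the study's methods, the authors trimmed reads with cutadapt 1.8.1, removed non-coding RNA reads with Bowtie2, aligned to GRCm38 with TopHat2 and deposited raw counts per gene, of uniquely mapped reads on exons, from featureCounts 1.4.4. Total mRNA libraries came from fragmented poly(A) RNA and footprint libraries from fragments of a narrow size range, so coding length and gene length enter the 2 library types differently.

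From the deposited counts, CPM were computed after TMM scaling. Differences were tested with edgeR 4.0.16 (quasi-likelihood, filterByExpr with a minimum count of 10 and total of 15, Benjamini-Hochberg over all genes tested, threshold 0.05) in R 4.3.3. All results were recomputed with RLE scaling, total counts only, no filter, DESeq2 1.42.0 and each culture left out. A replicate block was fitted too, except for levels between cell types and for the date comparisons, which already hold the date. The scripts were tested on simulated data. Added after seeing the data were the removal of a length trend and the omission of neuron WT 3 and hTDP-43 3. The study's DESeq was not used here. Every member could be named; values per library were given for 12 fixed genes, for the member with the largest change in each role and direction, and for up to 5 members with the smallest adjusted p elsewhere. The members and lists were chosen with earlier results of these data known.

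The replicate number marks the date in the labels, which pairs cultures within a cell type. Deviations from the group means correlated between same-numbered cultures at 0.485 to 0.676 in MN1 total mRNA, 0.544 to 0.649 in MN1 footprints, -0.284 to 0.712 in neuron total mRNA and 0.121 to 0.465 in neuron footprints. Depth limits neuron values, where 3 counts reach 18.1 CPM in the shallowest footprint library.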

Additional observations from a re-analysis of the deposited data

Results flagged for a closer look

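The footprint to mRNA ratio differed between MN1 cells and neurons, by a test of the difference itself, for 5 of 46 cell cycle genes. This count was near the share over all genes. On the log2 scale, MN1 cells minus neurons, it was -1.17 for E2f1, -1.605 for Cenpa, -0.859 for Rrm1, 2.178 for Tyms and 1.638 for Ccna2 (edgeR, adjusted over all genes, of which 2.13% were called higher and 5.94% lower). Without neuron hTDP-43 1 E2f1 alone was called, and Rrm1, Cenpa and Ccna2 lost their calls under further alternatives. Tyms and Ccna2 rested on 13 and 6 neuron footprint reads, and cell type, Ara-C and cycloheximide cannot be told apart.

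Among 24 sums of CPM over a role or over all 46 genes, each taken within a cell type and kind of library, all conditions together, 4 had a highest library separated from the others by more than Dixon's 95% limit. Chance gives this in about 1 of 20 sums, and sums over all 46 genes contain the sums by role. In neuron total mRNA hTDP-43 3 was at 695.1 CPM for the G1/S regulators, where Ccnd2 stood at 551.9, and at 1047 for all 46 genes. In neuron footprints A315T 1 was at 773.9 CPM for the replication genes, where Mcm7 stood at 683.9, and at 1372 for all 46 genes.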

How the results depend on the processing

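Between cell types, the calls of members stayed within 44 to 46 in total mRNA and 42 to 45 in footprints when any 1 culture was left out, and MN1 footprints against total mRNA gave 32 to 35. DESeq2 called 10 members between the MN1 dates in total mRNA, 0 in footprints and 3 for the ratio between cell types. Without the filter on low counts 1 member was called between neuron dates in total mRNA, 2 in footprints, and 1 (Mcm7) in each of 5 neuron comparisons (all 3 of footprints, and A315T against WT in total mRNA and in the ratio). Leaving out 1 culture at a time gave 12 to 20 members for the MN1 dates in total mRNA and 2 to 10 in footprints, 0 to 2 and 0 to 1 for the neuron dates, 6 to 12 for neuron footprints against mRNA, 1 to 6 for the ratio between cell types, 0 to 4 for MN1 total mRNA of A315T against GFP, 0 to 5 against hTDP-43, and 0 to 3 for neuron total mRNA of A315T against WT. The causes were not tested.

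The replicate block, which pairs cultures by label date, was not fitted to levels between cell types or to the date comparisons. For the ratio between cell types it gave 8 members. It gave 1 (Cenpf) for MN1 total mRNA of A315T against GFP and 1 (Mcm7) for neuron footprints of A315T against hTDP-43. It added Mcm6 in neuron footprints against mRNA, and Mki67, Kif23, Bub1b and Cdk2 in those of MN1 cells. Where it was fitted, no other call of a member changed. Under the alternatives there were 1049 values of named genes, in 63 pairs of gene and comparison. Of these, 980 kept their direction and side of the threshold, 63 lost their call, 5 gained one and 1 reversed. The reversed value was that of Mcm7 in neuron footprints of A315T against hTDP-43, at -0.475 without A315T 1 and up to 2.273 without hTDP-43 1, in unpaired fits. Within dates A315T was higher in footprints in 3 of 3 pairs, with shallow hTDP-43 libraries in replicates 2 and 3. In total mRNA it was lower in replicates 1 and 3 and nearly the same in replicate 2. Neuron footprints limit all of this, since 25 of the 46 genes never reached 10 counts there.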
